A study of Homo sapiens with 12 samples.

Results

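CDK12, CDK13 and CCNK (the gene of cyclin K) were followed through 4 conditions of an EU-seq experiment, in which RNA made during a pulse of 5-ethynyl-uridine (EU) is captured and sequenced. They were chosen by name, because the experiment silences CDK12 and the other two genes encode its closest paralogue and the cyclin of both kinases, and each is 1 row of a count table of 23434 genes, so that 3 of 23434 rows are described. The questions were how far newly made CDK12 RNA differed between the labelled groups, and whether CDK13 or cyclin K moved at the same time.

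CDK12 and CDK13 are large nuclear kinases that phosphorylate the C-terminal domain (CTD) of RNA polymerase II during elongation. Each is active only when bound to cyclin K, and the kinases are known to cover for each other in part, so that loss of one alone is milder than loss of both. CDK12 is best known for sustaining the transcription of long genes, including genes of the DNA damage response, and its loss favours use of polyadenylation sites inside introns.

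The cells were U2OS, a human osteosarcoma line, expressing the MycER chimera, a form of Myc that becomes active when its oestrogen receptor part binds 4-hydroxytamoxifen (OHT). Each of the 4 groups held 3 libraries: a non-targeting hairpin without OHT (shNT), the same hairpin with 300 nM OHT for 40 h (shNT_OHT), a hairpin against CDK12 without OHT (shCDK12), and that hairpin with OHT (shCDK12_OHT). All 12 libraries shared doxycycline at 1 µg/mL, which induces the hairpins, nocodazole at 100 ng/mL for 8 h, release of the mitotic cells for 12 h, a pulse of 0.5 mM EU in the last 2 h, and mouse RNA (10 µg) added to their own (40 µg). All groups carried MycER, and nothing in the labels says that the 3 libraries of a group came from separate cultures or that more than 1 hairpin against CDK12 was used.

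The targeted gene did not bear out its label without OHT. In the libraries labelled shCDK12 the CDK12 level overlapped that of shNT, as detailed below, while it was lower in those labelled shCDK12_OHT, and all directions given for these 6 libraries rest on their labels. A hairpin acts on mature RNA in the cytoplasm, whereas EU-seq reads RNA made within the pulse, so the CDK12 row is not a direct reading of the silencing, and the protein was not measured here.

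Library totals ranged from 1251695 to 10447836 counts, an 8.35-fold range, and both groups with the non-targeting hairpin held the shallowest libraries (1928373 to 5227279 in shNT and 1251695 to 3666406 in shNT_OHT, against 4142570 to 9400045 and 5378438 to 10447836 in the libraries labelled shCDK12 and shCDK12_OHT). Of 10 mesenchymal and osteoblast markers, RUNX2, COL1A1, COL5A1, SPARC, VIM and ALPL were detected in all 12 libraries, while TWIST1 was at 0 in 11, BGLAP in 9, and COL1A2 and SP7 in 5. The summed level of these markers was 849 to 949 CPM (counts scaled to a common library size) in shNT, 674 to 720 in shNT_OHT, 381 to 388 in the libraries labelled shCDK12 and 482 to 498 in those labelled shCDK12_OHT. Of 10 markers of other cell types, CDH1 was detected in every library and the other 9 were at 0 in at least 1, and the summed level was 12.4 to 17.4, 9.90 to 14.4, 18.7 to 23.4 and 13.4 to 15.9 CPM in the same order. Depth and both marker sums moved with the groups, and their part in the results below was not tested.

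The promoters are shown first, since EU-seq reads transcription that starts there. Whether their sequence bears on the levels below was not tested. Each line gives the 250 bases that end just before the RefSeq start of the gene on the plus strand of GRCh38.p14. Capitals mark matches, on either strand, to 4 motifs: the E-box CACGTG bound by Myc and its partner Max, the GC box GGGCGG, the CCAAT box CCAAT and the TATA box TATAAA.
CDK12 at chr17:39461236-39461485: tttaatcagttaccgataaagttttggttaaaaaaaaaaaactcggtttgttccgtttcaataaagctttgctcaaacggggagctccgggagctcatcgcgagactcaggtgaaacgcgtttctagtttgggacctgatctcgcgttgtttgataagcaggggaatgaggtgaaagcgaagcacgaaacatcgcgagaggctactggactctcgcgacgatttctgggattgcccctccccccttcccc
CDK13 at chr7:39950006-39950255: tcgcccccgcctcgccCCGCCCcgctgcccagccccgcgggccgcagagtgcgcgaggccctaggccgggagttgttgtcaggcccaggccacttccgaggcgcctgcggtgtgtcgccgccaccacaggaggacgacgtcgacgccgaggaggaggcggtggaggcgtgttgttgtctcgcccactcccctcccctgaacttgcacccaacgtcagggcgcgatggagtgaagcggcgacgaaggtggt
CCNK at chr14:99481159-99481408: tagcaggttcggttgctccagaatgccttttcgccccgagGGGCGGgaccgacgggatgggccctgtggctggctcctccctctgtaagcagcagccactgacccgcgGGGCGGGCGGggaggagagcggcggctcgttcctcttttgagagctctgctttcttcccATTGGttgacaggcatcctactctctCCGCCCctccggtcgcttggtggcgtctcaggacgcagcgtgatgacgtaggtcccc

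The CDK12 window held 48.8% G and C with 18 CpG pairs and no match to any of the 4 motifs. That of CDK13 held 72.0% G and C, 30 CpG pairs and 1 GC box. That of CCNK held 65.2% G and C, 20 CpG pairs, 4 GC boxes, of which the 2 in the run of capitals GGGCGGGCGG overlap, and 1 CCAAT box. The median over 35116 RefSeq promoters of this length was 58.0% G and C, and 6.34% of them held the E-box, 42.6% a GC box, 32.01% a CCAAT box and 10.7% a TATA box. CDK12 was thus the member with the least G and C and without a GC box, and its window lacked the E-box as did both others.

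Levels of the 3 genes in the nascent RNA are given as CPM scaled by TMM, which sets the bulk of genes equal between libraries. Per kilobase of exon, CDK12 had the highest level of the 3 genes, at a mean of 23.2 CPM per kb over the 12 libraries, higher than 80.5% of the 11299 genes with enough counts in all 12. CDK13 at 6.61 and CCNK at 6.40 CPM per kb lay close together, with 42.9% of genes below CCNK. Their closeness rests on the exon length used, all annotated exons merged, which was 24780 bases for CDK13 and 8220 for CCNK. Without length scaling their means were 164 and 52.6 CPM. CDK12 and CDK13 span more of the genome than 82.7% and 89.0% of those genes, and CCNK more than 50.7%. The biological coefficient of variation between replicates was low for the kinases, at 0.0813 for CDK12 and 0.0807 for CDK13, with 2.32% and 1.97% of genes lower. It was 0.109 for CCNK, and the median was 0.122. This edgeR estimate draws each gene toward a trend with abundance, and genes of all abundances were compared. In shNT_OHT alone the SD was 9.76% of the mean CPM for CDK12 and 9.80% for CDK13.

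CDK12 was measured at 323, 289 and 300.2 CPM in the 3 shNT libraries and at 434, 356 and 400.5 CPM in those of shNT_OHT. The libraries labelled shCDK12 gave 293, 277 and 298 CPM, and those labelled shCDK12_OHT gave 215, 208 and 218 CPM. The shNT_OHT libraries were all above, and the shCDK12_OHT libraries all below, every other library, whereas shCDK12 and shNT overlapped. Group means were 304 ± 17.4 in shNT, 397 ± 38.7 in shNT_OHT, 289 ± 10.9 in shCDK12 and 214 ± 5.09 in shCDK12_OHT (CPM, SD, n = 3), resting on 432 to 2640 counts a library. In the order shCDK12_OHT, shCDK12, shNT, shNT_OHT the middle pair was the only neighbouring pair that did not differ beyond its spread.

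CDK13 was measured at 179.9, 164 and 171 CPM in shNT and at 136, 138 and 161 CPM in shNT_OHT. In the libraries labelled shCDK12 it stood at 171, 170.4 and 172 CPM, and in those labelled shCDK12_OHT at 176, 163 and 164 CPM. The shNT_OHT libraries lay below all others, and the other 3 groups overlapped. The means were 172 ± 7.88, 145 ± 14.2, 171 ± 0.758 and 168 ± 6.86 CPM (SD, n = 3) in the order in which the groups were introduced, and no neighbouring pair in the order of levels passed the test.

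CCNK, with the fewest counts of the 3 genes (41 to 580 a library), was measured at 56.2, 44.3 and 51.6 CPM in shNT and at 51.4, 33.8 and 39.7 CPM in shNT_OHT. The libraries labelled shCDK12 gave 57.2, 60.9 and 55.9 CPM and those labelled shCDK12_OHT 66.6, 55.1 and 58.6 CPM. Both groups labelled shCDK12 lay above shNT_OHT without overlap, while all other pairs of groups overlapped. The means were 50.7 ± 6.01, 41.6 ± 8.93, 58.0 ± 2.58 and 60.1 ± 5.86 CPM (SD, n = 3), and no neighbouring pair in the order of levels passed. The lowest library, shNT_OHT replicate 2, held 41 CCNK counts, and its counting error alone was 15.6%.

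**Figure D1:**
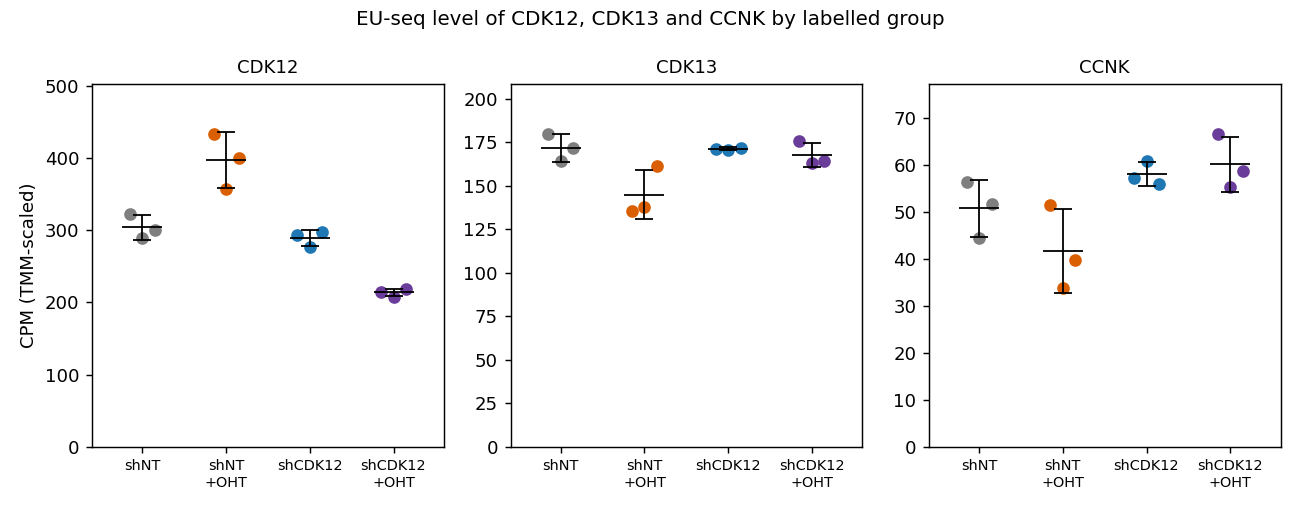
Level of newly made CDK12, CDK13 and CCNK RNA (vertical axes, TMM-scaled CPM from 0, a scale of its own for each gene) in the 3 libraries of each labelled group. Points are libraries and bars the mean ± SD; CDK12 averaged 397 CPM in shNT_OHT and 214 CPM in shCDK12_OHT, whereas shCDK12 (289 CPM) overlapped shNT (304 CPM).

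The first comparison asks whether the CDK12 row fell with the hairpin when MycER was not activated. Fitted on the 6 libraries across all genes with edgeR's quasi-likelihood test, CDK12 stood at 0.949-fold of shNT in the libraries labelled shCDK12, with a log2 difference of -0.08 (SE 0.08, 95% interval -0.25 to 0.10, adjusted p = 0.445). The 95% interval of the fold ran from 0.842 to 1.07, and the sign of the difference turned with upper-quartile scaling (log2 0.01), thinning (0.02) and removal of a length trend (0.02). CDK13 stood at 0.995-fold (log2 -0.01, SE 0.09, interval -0.19 to 0.18, edgeR adjusted p = 0.953) and CCNK at 1.15-fold (log2 0.20, SE 0.14, interval -0.08 to 0.48, edgeR adjusted p = 0.203). With edgeR none of the 3 genes passed, against 62.5% of the 11444 genes tested, and 0 of 3 did so at an unadjusted p under 0.05 or with DESeq2. All 3 overlapped between the groups, while 64.9% of genes did not. The hairpin libraries thus differed from shNT widely, but not detectably in CDK12 or its partners, and 47.5% of all genes had a lower log2 difference than CDK12.

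With OHT in both arms the CDK12 row differed clearly. CDK12 fell to 0.544-fold in the libraries labelled shCDK12_OHT against shNT_OHT (log2 -0.88, SE 0.11, 95% interval -1.11 to -0.64, edgeR adjusted p = 0.000107), without overlap. The fall lay among the larger ones, with 8.80% of the 11120 genes tested lower. CCNK rose 1.43-fold (log2 0.52, SE 0.17, interval 0.14 to 0.89, edgeR adjusted p = 0.0288), also without overlap, with 75.9% of genes lower. This rise was not stable: the call was kept in 1 of the 6 fits that leave out a library (log2 0.38 to 0.67), was lost without shNT_OHT replicate 2 (adjusted p = 0.082) or 3 (0.122) and without shCDK12_OHT replicate 1 (0.138), 2 (0.0561) or 3 (0.0791), and was lost when all libraries were thinned to the smallest total (log2 0.32, adjusted p = 0.514). CDK13 stood at 1.17-fold (log2 0.23, SE 0.12, interval -0.03 to 0.48, edgeR adjusted p = 0.135) with groups that did not overlap, did not pass, and turned to -0.03 once a length trend was removed. Thus 2 of the 3 genes passed against 46.3% of genes tested, and all 3 were without overlap against 55.9%, so the count of members does not stand out from the background.

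With the non-targeting hairpin CDK12 was higher upon OHT. CDK12 rose 1.30-fold in shNT_OHT against shNT (log2 0.38, SE 0.12, 95% interval 0.14 to 0.63, edgeR adjusted p = 0.0347) without overlap, and 82.8% of the 9994 genes tested were lower. The call was lost without shNT replicate 1 (adjusted p = 0.0868), 2 (0.196) or 3 (0.109) or without shNT_OHT replicate 3 (0.0849), with the log2 difference between 0.33 and 0.49. CDK13 stood at 0.843-fold (log2 -0.25, SE 0.13, interval -0.52 to 0.03, edgeR adjusted p = 0.204), without overlap, and CCNK at 0.835-fold (log2 -0.26, SE 0.20, interval -0.70 to 0.18, edgeR adjusted p = 0.404), with overlap. In all, 1 of 3 genes passed against 17.9% of genes, and 2 of 3 had no overlap against 36.2%.

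In the hairpin libraries the same treatment took CDK12 the other way. CDK12 fell to 0.739-fold in shCDK12_OHT against shCDK12 (log2 -0.44, SE 0.07, 95% interval -0.59 to -0.28, edgeR adjusted p = 9.59e-05), without overlap, which held for 56.5% of genes. CDK13 (log2 -0.03, SE 0.08, edgeR adjusted p = 0.772) and CCNK (log2 0.05, SE 0.10, edgeR adjusted p = 0.740) did not pass, so that 1 of 3 passed against 49.2% of 12389 genes tested. The difference between both OHT effects, tested as an interaction in a fit of all 12 libraries, was -0.83 on the log2 scale for CDK12 (SE 0.13, interval -1.10 to -0.55, edgeR adjusted p = 4.42e-05). It was 0.21 for CDK13 (SE 0.14, edgeR adjusted p = 0.232) and 0.29 for CCNK (SE 0.21, edgeR adjusted p = 0.274), and 46.1% of 11299 genes passed this test. The median of all genes in the interaction was 0.10.

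Against a single control group, CDK12 in shCDK12_OHT stood 0.704-fold of shNT (log2 -0.51, SE 0.07, edgeR adjusted p = 7.33e-07), where 1 of 3 genes passed against 56.1% of 11699. The shCDK12 libraries stood 0.740-fold of shNT_OHT (log2 -0.44, SE 0.12, edgeR adjusted p = 0.0104), where 1 of 3 passed against 39.9% of 10761; here the call was lost without shCDK12 replicate 2 (adjusted p = 0.0534). CCNK stood at log2 0.26 (edgeR adjusted p = 0.0622) and 0.48 (edgeR adjusted p = 0.0529) in these comparisons and CDK13 at -0.03 and 0.26, none of which passed. The comparisons share libraries, so their values are set side by side and are not separate support for each other. The log2 difference of shCDK12_OHT was -0.88 from shNT_OHT and -0.51 from shNT, the former being measured against the group in which CDK12 was highest.

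**Figure D2:**
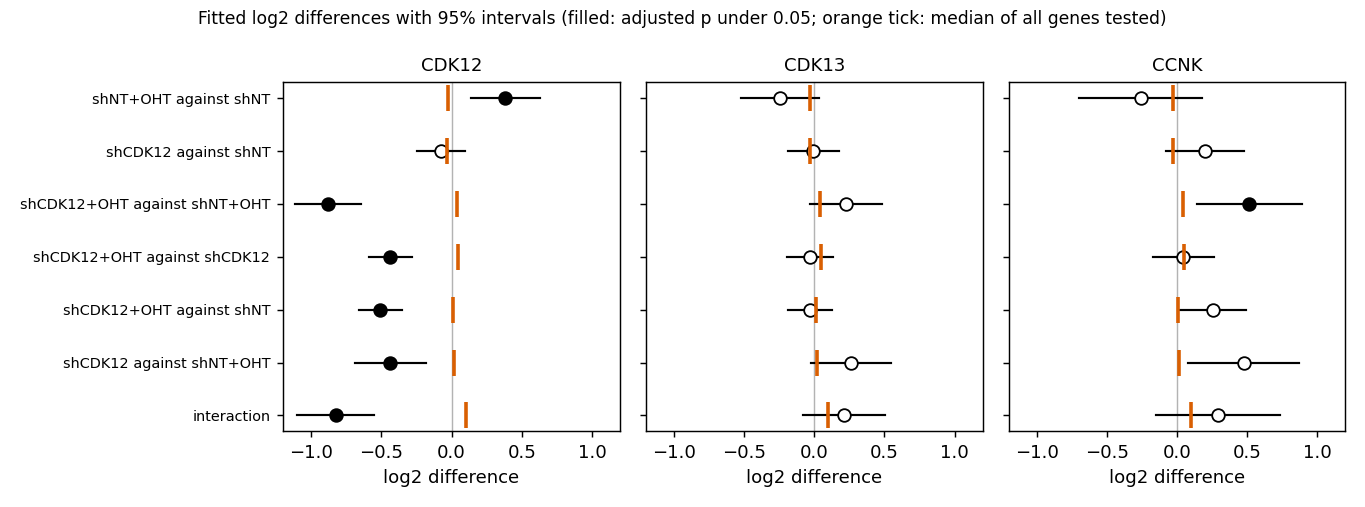
Fitted log2 differences (horizontal axis) of CDK12, CDK13 and CCNK in 6 pairs of groups and in the interaction, with 95% intervals; filled points have an edgeR adjusted p under 0.05 and orange ticks are the median of all genes tested. CDK12 reached -0.88 with OHT in both arms and stood at -0.08 without it, and the only filled point outside CDK12 is CCNK at 0.52.

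**Figure D3:**
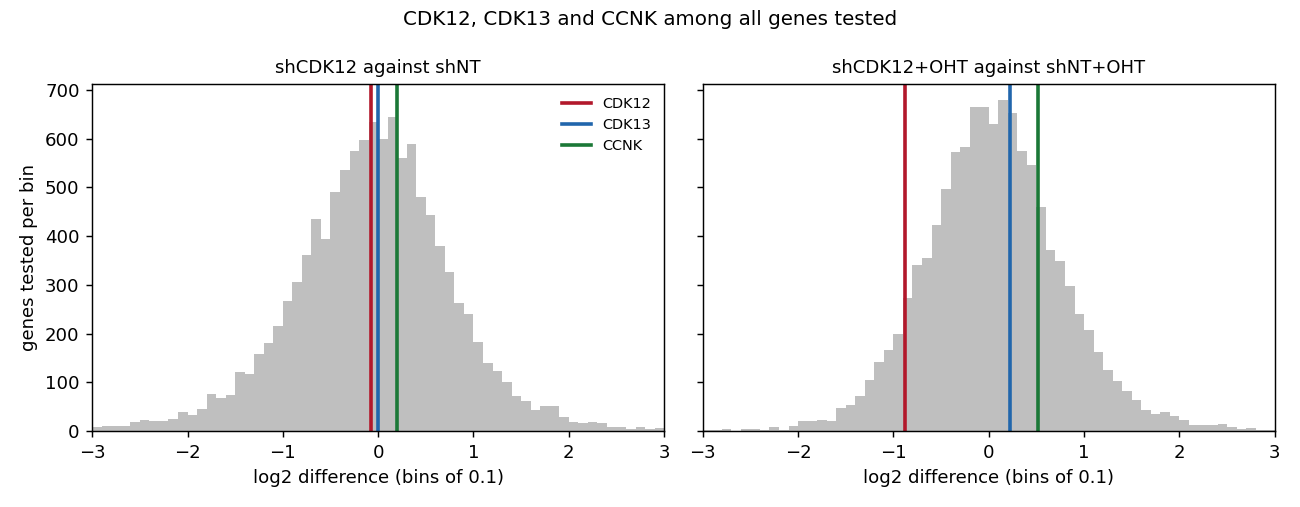
Histograms of the log2 difference over all genes tested (vertical axis, genes per bin of 0.1), without OHT on the left and with OHT in both arms on the right, with coloured lines at the 3 genes. Without OHT the lines sit at -0.08, -0.01 and 0.20 near the centre, and with OHT CDK12 lies at -0.88, where 8.80% of genes are lower.

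The balance of kinases and cyclin was read from ratios of their counts within a library, which do not depend on how libraries are scaled; being counts of genes of unlike length, they are compared between groups only. CDK12/CDK13 was 1.80, 1.76 and 1.75 in shNT, 3.20, 2.59 and 2.48 in shNT_OHT, 1.71, 1.63 and 1.73 in shCDK12 and 1.22, 1.27 and 1.33 in shCDK12_OHT. No pair of groups overlapped: the ratio was highest in shNT_OHT (2.76 ± 0.385) and lowest in shCDK12_OHT (1.28 ± 0.0512), and that of shCDK12 (1.69 ± 0.0562) lay slightly below that of shNT (1.77 ± 0.0234; SD, n = 3). The log2 differences were 0.63 for shNT_OHT against shNT, -0.07 for shCDK12 against shNT, -1.10 for shCDK12_OHT against shNT_OHT and -0.41 for shCDK12_OHT against shCDK12. Each had p = 0.1 in a two-sided exact permutation test, the smallest that 3 against 3 libraries allow, and an adjusted p of 0.133 over 12 ratio comparisons, so none could pass 0.05. After thinning to the smallest total the ratio overlapped between shNT_OHT and shNT (log2 0.52, exact permutation p = 0.3) and between shCDK12 and shNT (-0.03, exact permutation p = 1).

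CDK12/CCNK followed the same order, with means of 6.03 ± 0.428 in shNT, 9.69 ± 1.10 in shNT_OHT, 5.00 ± 0.402 in shCDK12 and 3.58 ± 0.300 in shCDK12_OHT (SD, n = 3). Its log2 differences were 0.68, -0.27, -1.43 and -0.48 in the 4 comparisons as ordered above, each without overlap and with the same exact permutation p = 0.1. Thinning moved them to 0.42, -0.69, -1.40 and -0.29, with overlap in the first and the last (exact permutation p = 0.3). It cut every library at random to the depth of shNT_OHT replicate 2, where CCNK had 41 counts and a counting error of 15.6%. Thinned ratios to CCNK are therefore less precise than the unthinned ones, and the size of their shift is not read as a result. CDK13/CCNK ran from 3.41 ± 0.264 in shNT to 3.59 ± 0.823 in shNT_OHT, 2.96 ± 0.142 in shCDK12 and 2.80 ± 0.161 in shCDK12_OHT (SD, n = 3). Its log2 difference in shCDK12 against shNT was -0.20, without overlap (exact permutation p = 0.1), and -0.66 after thinning, and in the other 3 comparisons the groups overlapped (exact permutation p = 0.8, 0.3 and 0.3, adjusted 0.8, 0.327 and 0.327). Relative to either partner, CDK12 thus stood highest in shNT_OHT and lowest in shCDK12_OHT.

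**Figure D4:**
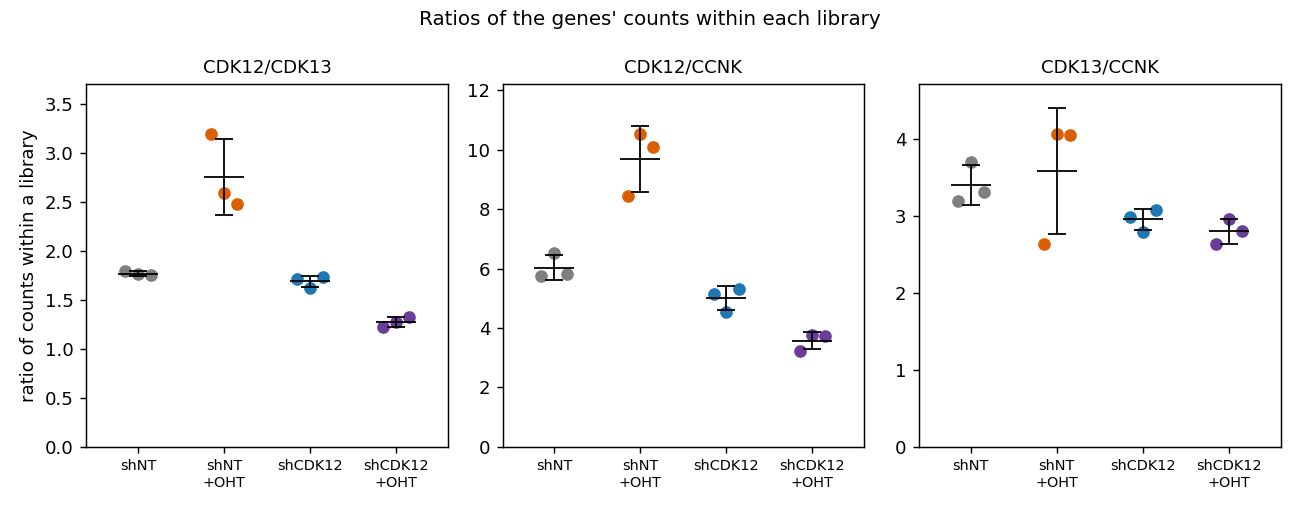
Ratios of the counts of CDK12 to CDK13, CDK12 to CCNK and CDK13 to CCNK (vertical axes, from 0) in each of the 12 libraries, with the mean ± SD of each labelled group. CDK12/CDK13 averaged 2.76 in shNT_OHT and 1.28 in shCDK12_OHT, with no overlap between any groups, while CDK13/CCNK ranged from 2.80 to 3.59 in the group means.

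The genes most like each member over the 12 libraries were sought by the root mean square difference of centred log2 CPM among 11298 other genes, as a description of shared libraries and depth. CDK12 was closest to RBM15B, an RNA-binding protein (0.07), EIF4G1, a scaffold of translation initiation (0.08), and SLC43A3, a membrane transporter (0.09), where the median gene differed by 0.50. As this choice fixes, their values followed those of CDK12: with OHT in both arms they stood at -0.82, -0.80 and -1.02 on the log2 scale, and without OHT they stood at -0.05, -0.15 and -0.08. CDK13 ranked 3484 and CCNK 6215 in likeness to CDK12. CDK13 was closest to DNAJC21, a co-chaperone, and to the zinc finger genes ZMYM4 and ZKSCAN1 (0.09, 0.09 and 0.10; median 0.39), with CCNK at rank 754. CCNK was closest to the zinc finger gene RREB1 (0.10), the receptor phosphatase PTPRF (0.13) and the CTD-binding protein RPRD2 (0.13), where the median was 0.46 and CDK13 ranked 155. With Pearson's r as the measure, 1 of the 3 closest genes was shared for CDK12, 0 for CDK13 and 1 for CCNK, so these names depend on the measure.

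The genes beside the 3 members were examined as a view of their surroundings. MED1, a Mediator subunit next to CDK12, stood at log2 -0.08 and 0.003 in the libraries labelled shCDK12 against shNT without and with OHT. STARD3, a cholesterol-binding protein on the other side, fell by 1.48 without OHT (edgeR adjusted p = 2.65e-06) and stood at -0.26 with it. Neither neighbour passed with OHT, where CDK12 fell. Beside CDK13, the noncoding gene LINC00265 stood at 0.10 and 0.42, and MPLKIP fell by 0.61 without OHT (edgeR adjusted p = 0.0288, a call lost with DESeq2, with upper-quartile scaling and without shNT replicate 2 or shCDK12 replicate 1 or 3) and stood at -0.07 with it. CCNK overlaps SETD3, a histidine methyltransferase, and CCDC85C in the RefSeq annotation, so that its reads cannot be fully told from theirs where the counting did not use strand. SETD3 stood at 0.26 and 0.25 (edgeR adjusted p = 0.083 and 0.196), while CCDC85C rose by 0.63 without OHT (edgeR adjusted p = 9.65e-06) and fell by 1.12 with it (edgeR adjusted p = 0.000592). The MYC row, to which the MycER transgene can also contribute reads, fell by 0.90 without OHT (edgeR adjusted p = 2.3e-10) and stood at 0.09 with OHT (edgeR adjusted p = 0.518).

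Other kinases and cyclins of transcription gave a mixed picture. Of 16 such genes besides the 3 members, 5 rose, 2 fell and 9 did not pass in the libraries labelled shCDK12 against shNT, with a median log2 difference of 0.12 against -0.03 over all genes, of which 29.8% rose and 32.8% fell. With OHT in both arms 4 rose, 2 fell and 10 did not pass, with a median of 0.10 against 0.04, where 24% of all genes rose and 22.2% fell. CDK7, the kinase of TFIIH, rose by 0.62 without OHT (edgeR adjusted p = 0.000168) and 0.57 with it (0.00479), while its partners CCNH (-0.19 and 0.15) and MNAT1 (-0.30 and -0.25) did not pass. CDK9, the kinase of P-TEFb that releases paused polymerase, fell by 0.62 (3.6e-06) and 0.58 (0.0065), whereas its cyclin CCNT1 rose by 0.49 (8.03e-06) and 0.40 (0.00774) and the alternative cyclin CCNT2 rose by 0.62 (6.32e-06) and stood at 0.41 (0.0552). In CPM, CDK9 averaged 155 in shNT, 173 in shNT_OHT, 101 in shCDK12 and 114 in shCDK12_OHT, and CCNT1 442, 441, 622 and 574. The CDK11 kinases, which act in splicing with cyclins L, could not be assigned firmly because CDK11A and CDK11B are near-identical copies: CDK11A stood at 0.22 and 0.07, and CDK11B rose by 0.64 without OHT (0.00609) and stood at 0.12 with it. CCNL1 stood at 0.12 and -0.38 without a call, and CCNL2 rose by 0.59 without OHT (9.49e-05) and stood at -0.01 with it.

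Enzymes and readers that act on the phosphorylated CTD were called in shares near those of all genes without OHT. Of 15 genes, 5 rose (33.3%, against 29.8% of all genes), 5 fell (33.3%, against 32.8%) and 5 did not pass, with a median of -0.002 against -0.03. With OHT 3 rose (20%, against 24%) and 2 fell (13.3%, against 22.2%), with a median of -0.08 against 0.04. SSU72, a phosphatase of the CTD, rose by 0.94 without OHT (edgeR adjusted p = 8.81e-08) and stood at 0.24 with it. CTDP1, another phosphatase, rose by 0.63 (0.000435) and stood at -0.32, PCF11, a termination factor that binds the CTD, rose by 0.67 (1.12e-06) and stood at -0.11, and RPAP2 stood at 0.23 and 0.57 without a call. The 5 that fell without OHT, named here after their values were seen, were the phosphatases CTDSP1 (-1.43) and CTDSPL (-0.80), the CTD-binding SCAF1 (-0.64) and SCAF4 (-0.26), and the elongation factor SUPT6H (-0.32).

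DNA repair genes regarded as dependent on CDK12 were called in shares near those of all genes without OHT. Of 21 such genes, 5 rose (23.8%, against 29.8% of all genes), 8 fell (38.1%, against 32.8%) and 8 did not pass, with a median of -0.13 against -0.03 over all genes. With OHT in both arms 7 fell (33.3%, against 22.2% of all genes), 0 rose (against 24%) and 14 did not pass, with a median of -0.36 against 0.04. None rose with DESeq2 or at an unadjusted p under 0.05 either, while 2 rose without shNT_OHT replicate 2 and 1 without shNT_OHT replicate 3. The falls numbered 3 after thinning, as did those without OHT, and 11 without shNT_OHT replicate 1. BRCA1 averaged 68.9 ± 1.46 CPM in shNT, 49.3 ± 4.48 in shNT_OHT, 31.1 ± 1.58 in shCDK12 and 27.2 ± 3.06 in shCDK12_OHT (SD, n = 3). It fell by 1.14 without OHT (edgeR adjusted p = 6.88e-08) and 0.83 with it (edgeR adjusted p = 0.00222), so BRCA1 was also lower in the libraries whose CDK12 row overlapped that of shNT. ATR, the kinase that senses stalled replication, fell by 0.93 and 0.92 (edgeR adjusted p = 0.000122 and 0.00764), and FANCI of the Fanconi pathway by 1.00 and 0.88 (edgeR adjusted p = 5.02e-07 and 0.00108). Its partner FANCD2 stood at -0.25 without OHT (edgeR adjusted p = 0.131) and fell by 0.75 with it (edgeR adjusted p = 0.00791). These named repair genes were preset, from a list chosen with earlier results of these data known, and all fell with OHT. None of the 5 that rose without OHT is among them, so they do not stand for the whole list. Thinning all libraries to the smallest total ended the calls of CDK7 (log2 0.12), CTDP1 (0.53) and CCDC85C (0.33) without OHT and those of CDK7 (0.46), CCNT1 (0.34), BRCA1 (-0.86) and FANCI (-0.64) with OHT. Not every named gene had enough counts to be tested in all 8 alternative settings that kept every library. ATR was tested in 7 without OHT and in 6 with OHT, and MNAT1 in 7 without OHT. STARD3, CDK11A, CDK11B, LINC00265 and MPLKIP were tested in 6. How their calls stand in the remaining settings is not known.

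**Figure D5:**
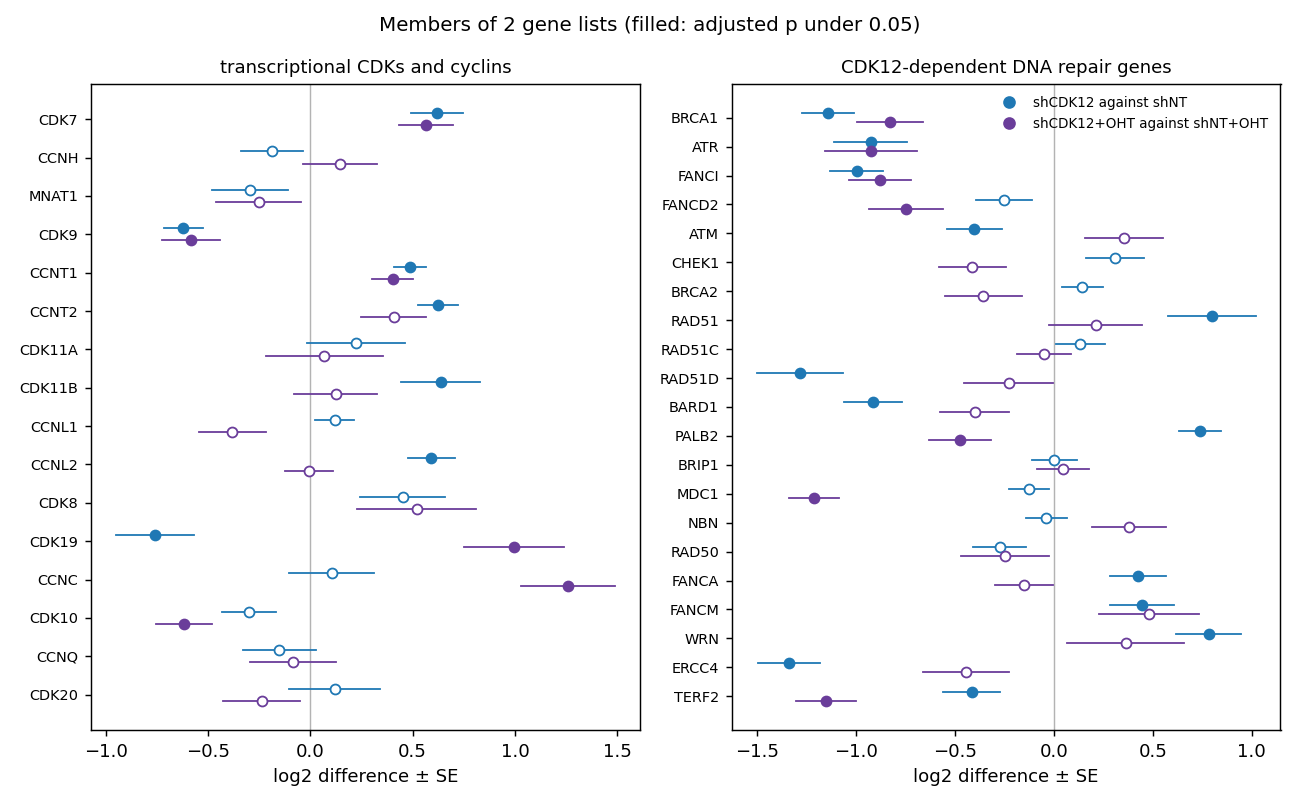
Log2 differences ± SE (horizontal axes) of 16 transcriptional kinases and cyclins and 21 DNA repair genes in the libraries labelled shCDK12 against shNT without OHT (blue) and with OHT in both arms (purple); filled points have an edgeR adjusted p under 0.05. With OHT 7 of the 21 repair genes are filled on the lower side and 0 on the higher side, where 22.2% of all genes fell and 24% rose, and CDK7 and CCNT1 are filled above 0, and CDK9 below 0, in both.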

How the data were processed

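EU-seq libraries from 12 samples were analysed as 4 labelled groups of 3. The deposited table holds unnormalized counts by Entrez gene. The submitters' processing notes name STAR 2.7.5c, featureCounts 1.4.5-p1 and hg19; the annotation and strand setting are not given in the sources used here, and the kit was TruSeq Stranded Total RNA. The table holds no mouse rows, so differences in overall RNA synthesis are not visible. RefSeq symbols matched 23284 of 23434 rows; the other 150 were also tested. Gene lengths, neighbours and promoters come from GRCh38 annotations, not the build of the counts.

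Counts were fitted with edgeR 4.0.16 in R 4.3.3 (TMM, quasi-likelihood test, Benjamini-Hochberg, adjusted p under 0.05) on genes whose normalized counts averaged over 32. Each fit held the 6 libraries of a pair of groups, or all 12 for the interaction. CPM came from edgeR, and ratios were compared by exact permutation tests over libraries. Named genes were the 3 members, preset genes of 3 lists, MYC, the nearest tested neighbours and the 3 genes most like each member; CDK12-dependent refers to general knowledge, not to these data. Members and lists were chosen with earlier results of these data known. Every pair of replicates differed by more than sampling noise, and p-values measure the spread between labelled samples, which may be technical. Replicate numbers were not taken to pair the samples, since not every same-numbered pair deviated together with a correlation over 0.1. Alternatives were DESeq2 1.42.0, upper-quartile scaling, other count filters, a replicate block, one fit of all libraries, thinning to the smallest total, removal of a length trend, and leaving out each library. The scripts were tested on simulated data.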

Additional observations from a re-analysis of the deposited data

Results flagged for a closer look

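The effect of OHT on CDK12 differed between the hairpins by -0.83 on the log2 scale (OHT effect in the libraries labelled shCDK12 minus that in shNT; SE 0.13, edgeR interaction adjusted p = 4.42e-05). CDK12 rose in the shNT libraries, a call kept in 2 of 6 fits that left out a library, and fell in those labelled shCDK12. Neither pair of groups overlapped, which held for 36.2% and 56.5% of all genes tested. In the interaction 46.1% of genes passed, and 13.7% had a lower value than CDK12. The interaction value of CDK12 lay between -0.89 and -0.76 when each of the 12 libraries was left out in turn.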

How the results depend on the processing

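Among the alternatives run, CDK12 kept its call and direction in shCDK12_OHT against shNT_OHT, against shCDK12 and against shNT and in the interaction, also without any single library. After thinning to the lowest depth, with fewer genes tested, 847 genes were called in shNT_OHT against shNT (1784 unthinned), 2966 in shCDK12 against shNT (7156), 1847 in shCDK12_OHT against shNT_OHT (5145), 1041 in shCDK12_OHT against shCDK12 (6101), 1788 in shCDK12_OHT against shNT (6568), 1801 in shCDK12 against shNT_OHT (4293) and 1786 in the interaction (5207), so the number of calls depends on depth. One fit of all 12 libraries gave 3222 calls in the first comparison; the cause was not tested. Leaving out a library gave 662 to 2473 calls there and 2818 to 4757 in shCDK12 against shNT_OHT, the fewest without shNT replicate 2 (662) and shCDK12 replicate 2 (2818). CDK12 in shNT_OHT against shNT ranged from 0.33 to 0.49 on the log2 scale when a library was left out and kept its call in 2 of 6 such fits, and in shCDK12 against shNT_OHT from -0.54 to -0.38, with the call in 5 of 6. In the 8 alternatives that kept every library, CDK12 kept its call in both comparisons (log2 0.38 to 0.58 and -0.55 to -0.43). CCNK in shCDK12_OHT against shNT_OHT lost its call with upper-quartile scaling (0.46), thinning (0.32), length correction (0.45) and in 5 of 6 fits without a library (0.38 to 0.67). CCNK gained a call in shCDK12_OHT against shNT with upper-quartile scaling (0.27), with the replicate number as a block (0.26) and without shNT replicate 1 (range 0.14 to 0.36), and in shCDK12 against shNT_OHT with the block (0.49), in one fit of all libraries (0.44) and without shNT_OHT replicate 1 (range 0.34 to 0.64). The block changed no other call of the 3 genes. Correlations of same-numbered samples ran from -0.11 to 0.32, with 3 of 18 above 0.1 (0 of 36 between different numbers), and 24 of 36 cases correlated best with their own number. This is a hint of pairing in the data, but most pairs stayed under 0.1 and the labels name nothing the numbers share. With the block 1730, 7321, 4726, 6209, 6369, 5014 and 5322 genes were called, in the order above.

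Signs turned only where neither value was called. For CDK12 in shCDK12 against shNT this was so with upper-quartile scaling (0.015), thinning (0.016) and length correction (0.018), and for CDK13 with DESeq2 (0.027), upper-quartile scaling (0.083), thinning (0.0054), length correction (0.085) and without a library (-0.039 to 0.032). CDK13 turned in shCDK12_OHT against shNT_OHT with length correction (-0.031), against shCDK12 with thinning (0.0011), against shNT with thinning (0.026) and without a library (-0.077 to 0.014), and in the interaction with length correction (-0.12). CCNK turned with thinning in shNT_OHT against shNT (0.11) and the interaction (-0.40), and in shCDK12_OHT against shCDK12 with DESeq2 (-0.0073), upper-quartile scaling (-0.016), thinning (-0.29), length correction (-0.0011) and without a library (-0.034 to 0.11). The log2 ratio CDK13/CCNK turned with thinning in shNT_OHT against shNT (-0.10; without a library -0.055 to 0.26) and in shCDK12_OHT against shCDK12 (0.28). Among other named genes in shCDK12 against shNT, MED1 turned with upper-quartile scaling (0.011), CCNL1 without a library (-0.0018 to 0.21) and LINC00265 likewise (-0.038 to 0.27). With OHT in both arms MED1 turned with DESeq2 (-0.039), upper-quartile scaling (-0.050), one fit of all libraries (-0.015), thinning (-0.075), length correction (-0.090) and without a library (-0.11 to 0.026). Thinning turned SSU72 (-0.00099) and SETD3 (-0.14), and length correction CCNH (-0.063), CCNL2 (0.080) and MPLKIP (0.088). Without a library CCNH ranged from -0.026 to 0.31, CDK11A from -0.12 to 0.40, CDK11B from -0.040 to 0.25, CCNL2 from -0.053 to 0.030, MPLKIP from -0.26 to 0.063 and MYC from -0.043 to 0.16. Of 50 results of named genes outside the 3 members, 22 kept both sign and call, 8 lost a call under some alternative, 8 gained one and 12 changed sign. Alternatives in which a gene had too few counts to be tested do not enter these numbers. Results counted as kept for ATR, STARD3, CDK11A, CDK11B and LINC00265 rest on 6 or 7 of the 8 alternatives that kept every library. Upper-quartile scaling moved the median of all genes in the interaction from 0.10 to -0.02. The causes of these changes were not tested.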
